A study of Mus musculus with 12 samples.

Results

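The subject is a set of 41 interferon-induced genes, nucleic acid sensors and genes of major histocompatibility complex (MHC) class I presentation, read in whole mouse liver. They were chosen by gene name, with earlier results of these data known. All 41 names were found once among the 48537 genes of the deposited table. Livers were collected at zeitgeber time 10, the 10th hour after lights on, in 3 groups of 4. Control livers have the genotype label wildtype and carry YFP in their titles. Livers labelled DKO have a double knockout of the REV-ERB genes, also with YFP in the title. Re-expression livers carry DKO in the title too, with wild-type REV-ERBalpha named in place of YFP, so both of these groups share the knockout label. The column names of the table add Cre to the DKO group. Those taken as the re-expression group carry YFP and WT, with neither DKO nor Cre. Strain, age, the deleted exons, the cells that express the recombinase and the means of re-expression are not given in the sources used here.

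Interferons are secreted signals of infection. Type I and type III interferons act through JAK kinases on a complex that holds STAT2 and IRF9 and binds the interferon-stimulated response element (ISRE) in front of its target genes. Interferon gamma acts on a different element, the gamma-activated site (GAS), and drives many GTPase and antigen presentation genes. Even without infection, liver holds a low tonic level of these RNAs, in hepatocytes and in its resident immune and endothelial cells. REV-ERBalpha and REV-ERBbeta are clock repressors that bind a different motif, the ROR element. In bulk liver, fewer cells of a type and less RNA per cell cannot be told apart.

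Promoter windows show which of these elements the members carry near their start sites. RefSeq windows on GRCm38.p6, from 250 bases before to 50 after the start, matched 31 of the 41 members in 36 windows. No window was matched for Zbp1, Usp18, Parp14, Parp9, Dhx58, Oas2, Mx1, Mx2, Ifi27 or Iigp1. The following 8 windows are shown to set beside the results. Stat2, Irf1, Igtp, Gbp7, Psmb8 and Psmb9 are all the members with a window whose control livers did not overlap with livers labelled DKO, Irgm2 is the neighbour of Igtp, and Isg15 is an interferon target whose groups overlapped. For Irf1 the first of 2 windows is given. Capitals mark matches to the ISRE core (GAAA, any 2 bases, GAAA) or the GAS core TTCNNNGAA, searched on both strands and printed 5′ to 3′ on the strand of the gene.
Stat2: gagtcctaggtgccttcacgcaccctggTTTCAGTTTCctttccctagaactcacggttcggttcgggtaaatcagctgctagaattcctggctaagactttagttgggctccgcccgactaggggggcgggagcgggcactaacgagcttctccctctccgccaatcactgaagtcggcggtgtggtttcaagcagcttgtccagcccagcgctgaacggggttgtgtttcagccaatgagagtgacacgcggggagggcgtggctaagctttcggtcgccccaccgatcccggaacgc
Irf1: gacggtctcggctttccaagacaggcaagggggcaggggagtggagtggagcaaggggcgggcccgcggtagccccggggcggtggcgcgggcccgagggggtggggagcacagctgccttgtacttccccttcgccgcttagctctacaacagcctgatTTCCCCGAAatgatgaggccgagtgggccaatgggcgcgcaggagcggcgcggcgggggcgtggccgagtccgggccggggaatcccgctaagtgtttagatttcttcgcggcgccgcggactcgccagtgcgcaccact
Igtp: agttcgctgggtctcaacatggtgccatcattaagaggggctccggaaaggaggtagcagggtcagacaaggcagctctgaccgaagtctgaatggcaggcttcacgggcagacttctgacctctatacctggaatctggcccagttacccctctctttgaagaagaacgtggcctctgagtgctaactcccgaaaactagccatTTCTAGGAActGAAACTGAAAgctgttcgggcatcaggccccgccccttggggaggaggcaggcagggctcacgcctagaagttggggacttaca
Irgm2: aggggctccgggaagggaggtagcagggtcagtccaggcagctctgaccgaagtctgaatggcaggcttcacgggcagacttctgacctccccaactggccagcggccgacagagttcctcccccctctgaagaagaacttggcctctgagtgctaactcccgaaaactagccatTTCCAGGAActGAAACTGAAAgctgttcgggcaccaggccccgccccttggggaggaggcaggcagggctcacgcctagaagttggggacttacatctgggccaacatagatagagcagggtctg
Gbp7: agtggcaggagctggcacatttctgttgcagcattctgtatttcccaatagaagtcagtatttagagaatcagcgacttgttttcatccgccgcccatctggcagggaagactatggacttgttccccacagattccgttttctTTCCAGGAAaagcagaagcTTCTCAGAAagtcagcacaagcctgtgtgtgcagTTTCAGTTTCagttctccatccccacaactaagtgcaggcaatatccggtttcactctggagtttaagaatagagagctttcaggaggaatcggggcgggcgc
Psmb8: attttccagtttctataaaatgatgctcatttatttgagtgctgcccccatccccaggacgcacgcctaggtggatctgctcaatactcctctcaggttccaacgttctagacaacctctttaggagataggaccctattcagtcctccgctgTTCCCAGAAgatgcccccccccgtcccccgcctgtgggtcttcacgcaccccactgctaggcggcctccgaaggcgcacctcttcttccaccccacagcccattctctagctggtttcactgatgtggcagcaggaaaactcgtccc
Psmb9: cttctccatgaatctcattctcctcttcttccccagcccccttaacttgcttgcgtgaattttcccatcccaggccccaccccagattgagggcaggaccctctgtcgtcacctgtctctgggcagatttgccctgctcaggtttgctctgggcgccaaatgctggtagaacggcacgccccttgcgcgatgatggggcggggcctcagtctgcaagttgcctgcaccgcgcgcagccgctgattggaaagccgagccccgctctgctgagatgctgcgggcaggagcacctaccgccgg
Isg15: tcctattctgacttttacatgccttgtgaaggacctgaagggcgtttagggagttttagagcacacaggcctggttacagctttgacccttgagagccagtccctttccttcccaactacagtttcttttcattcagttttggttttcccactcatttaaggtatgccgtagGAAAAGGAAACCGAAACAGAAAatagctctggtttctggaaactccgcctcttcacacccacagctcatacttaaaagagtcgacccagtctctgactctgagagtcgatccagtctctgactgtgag
The windows lie at chr10:128270248-128270547, plus strand for Stat2, chr11:53769764-53770063, plus strand for Irf1 and chr17:34187281-34187580, minus strand for Psmb9. The others lie at chr11:58199306-58199605, plus strand for Igtp, chr11:58214727-58215026, plus strand for Irgm2, chr3:142530086-142530385, plus strand for Gbp7, chr17:34197945-34198244, plus strand for Psmb8 and chr4:156200769-156201068, minus strand for Isg15. Isg15 held 3 overlapping ISRE cores and no GAS core. Igtp and Irgm2 each held 1 GAS core followed by 1 ISRE core, and their windows share a run of 61 identical bases. Gbp7 held 2 GAS cores and 1 ISRE core. Irf1 and Psmb8 each held 1 GAS core, Stat2 held 1 ISRE core, and Psmb9 held neither. Livers labelled DKO lay below control livers without overlap in 8 of 41 members and in 5.4% of all tested genes. Among the 9 members with a GAS core, the groups did not overlap for Irf1, Igtp, Gbp7 and Psmb8 and overlapped for Irgm2, Bst2, Ifi35, Ifit2 and Oas1a. Among the 16 with an ISRE core they did not overlap for Stat2, Igtp and Gbp7. Among the 7 with the core of the ROR element they did not overlap for Igtp. A link between cores and differences was not tested. An ISRE core was found in 44.4% of the 36 member windows and in 3.44% of all 32851 windows. For the GAS core these shares were 25% and 8.3%. The letters AGGTCA, the core of the ROR element searched on both strands, were found in 22.2% of member windows and 16.3% of all windows. These matches describe letters in a window. Windows of Tap1 and Psmb9, which start on opposite strands from a common region, share 275 bases.

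Each library had between 5621667 and 6906221 reads counted to genes, recovered as described under processing. The hepatocyte markers Alb, Apoa1, Ttr, Apob and Hnf4a summed to between 35974 and 41280 TPM, a share of the library's reads scaled by gene length, in every library. Of these 5 markers, 1 was higher by the test in livers labelled DKO, beside 2.99% of all tested genes. It was Ttr (log2 change 0.32, adjusted p = 0.025 in limma), a call lost in 10 of 22 alternatives. At an unadjusted p under 0.05 in limma, Apoa1, Hnf4a and Ttr were higher and Alb was lower, beside 9.6% and 8.76% of all genes. The sum thus holds changes of either sign. Nr1d1, the gene of REV-ERBalpha, had a control mean of 68.7 ± 5.53 TPM, a DKO mean of 82.5 ± 7.39 and a re-expression mean of 191 ± 22.4 (SD, n = 4). For Nr1d2, the gene of REV-ERBbeta, these means were 96.6 ± 14.9, 90.4 ± 7.91 and 97.7 ± 15.1 TPM. Sums over a whole gene do not check the deletion of a part, so the DKO group is named by its label throughout.

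Comparing livers labelled DKO with control livers asks how the interferon set differs when REV-ERB is labelled as absent. One member, the sensor gene Zbp1, was lower by the test, 3.60-fold by group means. The other 40 did not pass at a Benjamini-Hochberg adjusted p of 0.05 in limma's fit of all 17957 tested genes. All 41 members had a mean of at least 1 TPM, so all were tested. Passing in the lower direction was 1 of 41 members, which is 2.44%, beside 2.34% of all tested genes. In the higher direction 0 members passed, beside 2.99% of all genes.

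Most of the smaller differences had one sign. The log2 change was below 0 in 39 of 41 members, beside 49.8% of all tested genes, and its median was -0.25 beside 0.00107 over all tested genes. At an unadjusted p under 0.05, 17 members were lower and 0 higher, beside 8.76% and 9.6% of all genes. All 4 livers labelled DKO lay below all 4 control livers in 8 members, beside 5.4% of all genes, and above them in 0, beside 6.13%. These 8 were Zbp1, Stat2, Irf1, Usp18, Gbp7, Igtp, Psmb8 and Psmb9. The members share livers and induction pathways and are not independent of one another. Count-based weighting of the recovered reads (voom) passed 6 members as lower, beside 3.41% of all genes.

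**Figure D1:**
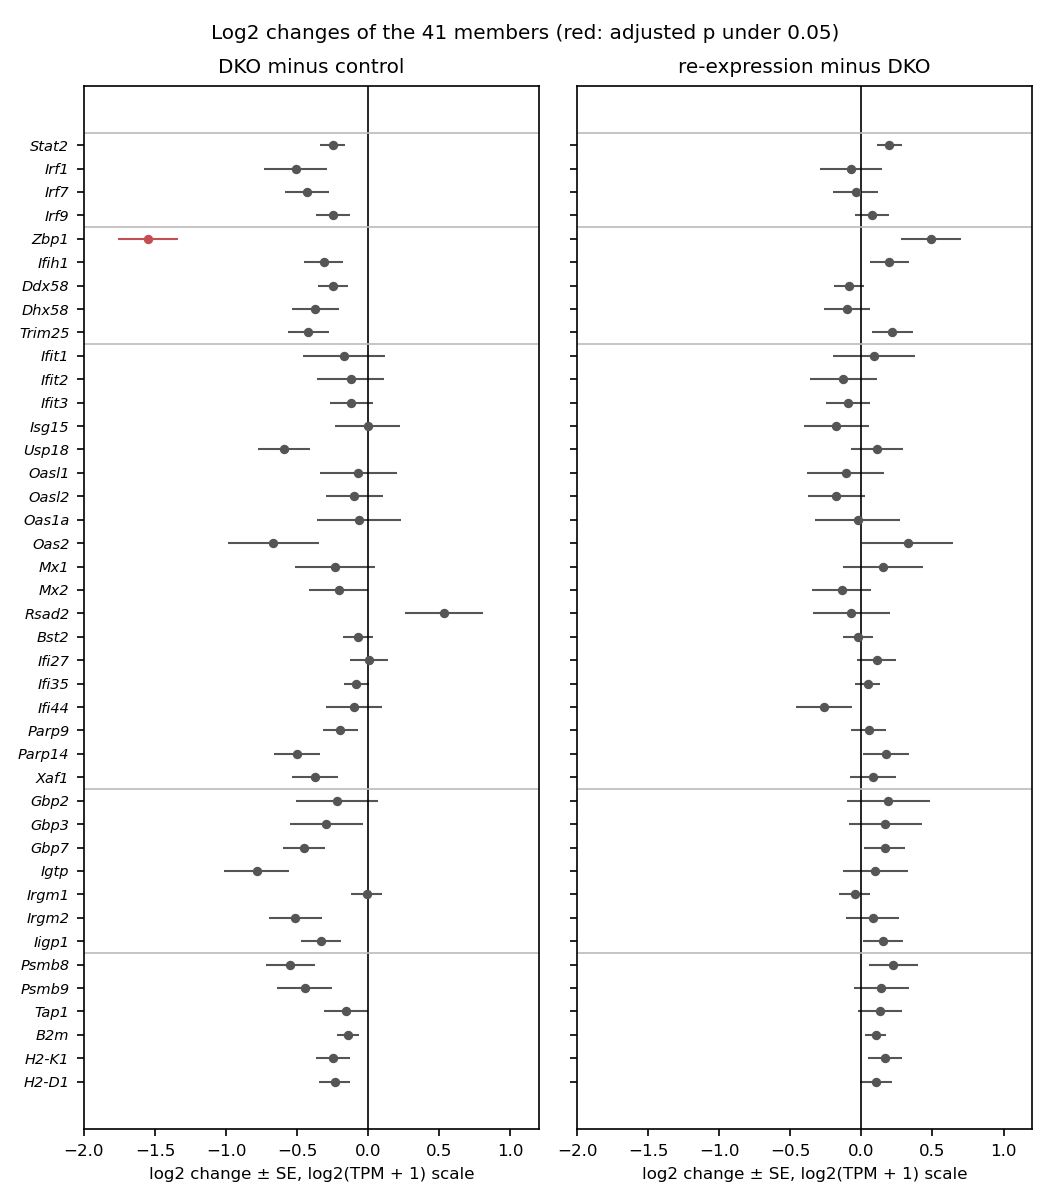
Log2 change ± SE on the log2(TPM + 1) scale for each of the 41 members, ordered by role, in livers labelled DKO minus control livers (left) and in re-expression livers minus livers labelled DKO (right). Zbp1 is the 1 member in red, at -1.55 on the left, and Rsad2 is the 1 member well to the right of 0 there, at 0.53.

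The 5 sensor genes were all lower by means, with a median log2 change of -0.37. Zbp1 (chromosome 2, 173206612 to 173218923, minus strand, build mm10) encodes a receptor of Z-form nucleic acids that can start necroptosis. It stood at 14.01, 9.29, 11.9 and 8.38 TPM in the control livers, 2.43, 3.70, 3.01 and 2.96 in the livers labelled DKO and 3.73, 3.70, 7.42 and 4.29 in the re-expression livers. No liver labelled DKO reached the lowest control liver, and no re-expression liver did either. The recovered reads behind these values were 112, 78, 87 and 61 in the control livers, 21, 29, 23 and 22 in the livers labelled DKO and 29, 30, 63 and 36 in the re-expression livers. In log2(TPM + 1), Zbp1 fell by 1.55 ± 0.21 (SE), with an adjusted p of 0.00157 in limma. That call held in all 22 alternatives, with adjusted p between 0.000261 and 0.00727. No annotated gene overlaps Zbp1.

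The other sensors had changes of at most 0.42 in size. Trim25, which encodes a ubiquitin ligase that acts on the RNA helicase RIG-I, stood at 74.4, 86.4, 68.2 and 52.5 TPM in the control livers and 51.1, 60.7, 47.2 and 47.7 in the livers labelled DKO. Control replicate 4 lay inside the range of the livers labelled DKO, and the other 3 control livers lay above it. Its log2 change was -0.42 ± 0.14 (SE, adjusted p = 0.133 in limma). It passed without control replicate 4 (0.0285) and with voom (0.0367). Ddx58, the gene of RIG-I, had means of 19.8 ± 2.29 and 16.5 ± 1.53 TPM (SD, n = 4). Ifih1, the gene of the helicase MDA5, had 21.7 ± 2.83 and 17.4 ± 3.08, and Dhx58, the gene of the related helicase LGP2, 10.4 ± 1.41 and 7.83 ± 1.54. Ranges overlapped for these 3 helicase genes, and their log2 changes were -0.25, -0.31 and -0.37.

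**Figure D2:**
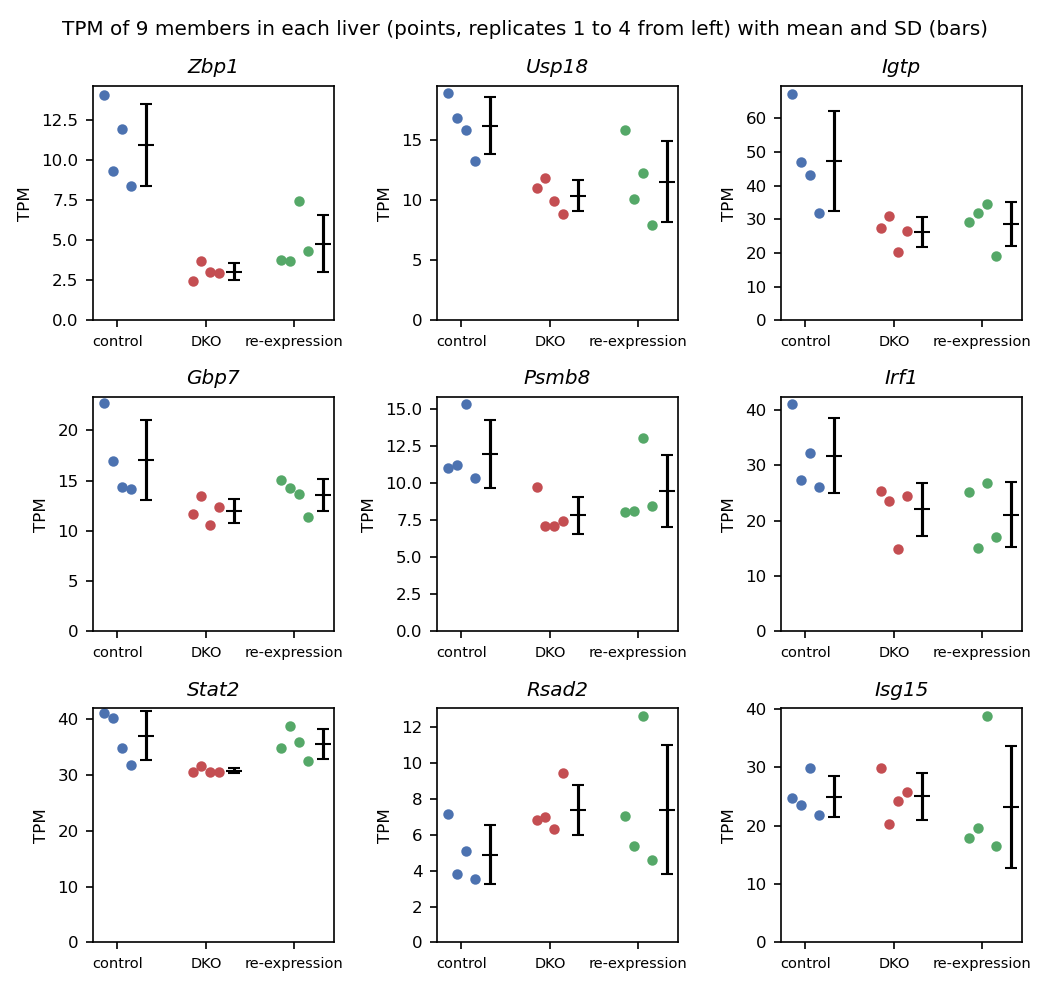
TPM in each liver for 9 members, with replicates 1 to 4 from left to right in each group and the mean ± SD (n = 4) as a bar beside them. The 4 livers labelled DKO lie below the 4 control livers for Zbp1, Usp18, Igtp, Gbp7, Psmb8, Irf1 and Stat2, and the groups overlap for Rsad2 and Isg15.

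The 4 signalling genes had log2 changes from -0.51 to -0.25, none past the test. Stat2, which encodes a STAT of the ISRE-binding complex, stood at 41.02, 40.2, 34.9 and 31.8 TPM in the control livers and 30.5, 31.5, 30.5 and 30.5 in the livers labelled DKO. The livers labelled DKO were close together below the lowest control liver, and the log2 change was -0.25 ± 0.09 (SE, adjusted p = 0.148 in limma). Irf1, the gene of a factor induced by interferon gamma, stood at 41.03, 27.4, 32.3 and 26.2 TPM in the control livers and 25.3, 23.5, 14.9 and 24.5 in the livers labelled DKO. The highest liver labelled DKO lay just under the lowest control liver, and DKO replicate 3 lay well below the rest. The change of Irf1 was -0.51 ± 0.22 (adjusted p = 0.243 in limma). Irf7, the gene that amplifies interferon production, had means of 27.8 ± 5.08 and 20.2 ± 2.51 TPM with overlapping livers, and Irf9 had 20.3 ± 2.86 and 16.8 ± 0.930 (SD, n = 4). Irf7 overlaps Phrf1 on the opposite strand and Irf9 overlaps Rnf31 on its own strand, so reads there may be split between genes.

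The 19 antiviral effector genes had the median nearest to 0 among the roles, -0.12, and log2 changes from -0.67 to 0.53. Usp18, the gene of the protease that removes ISG15 and dampens interferon receptor signalling, stood at 18.97, 16.8, 15.9 and 13.2 TPM in the control livers and 11.02, 11.8, 9.92 and 8.83 in the livers labelled DKO. The groups did not overlap, and the log2 change was -0.59 ± 0.18 (SE, adjusted p = 0.0931 in limma). Usp18 passed with the replicate number as a block (0.0381), with voom (0.0367) and without re-expression replicate 1 (0.0475). Usp18 overlaps Gm44148, at a mean of 7.05 TPM over all libraries, on the opposite strand, so its reads may be shared. Parp14, which encodes an ADP-ribosyltransferase, stood at 41.3, 34.04, 31.7 and 23.9 TPM in the control livers and 22.3, 25.4, 19.4 and 22.8 in the livers labelled DKO. Control replicate 4 lay within the range of the livers labelled DKO, and the log2 change was -0.50 ± 0.16 (adjusted p = 0.112 in limma). Parp14 passed without control replicate 4 (0.032) and with voom (0.0253).

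Isg15 and the Ifit genes had log2 changes smaller than their SE. Isg15, a ubiquitin-like modifier, stood at 24.8, 23.6, 29.9 and 21.8 TPM in the control livers, 29.9, 20.3, 24.2 and 25.8 in the livers labelled DKO and 17.9, 19.6, 38.9 and 16.5 in the re-expression livers. The groups overlapped throughout, and its log2 change, with an SE of 0.23, took either sign across the alternatives. Ifit1, whose product binds viral RNA, ranged from 7.64 to 10.9 TPM in control livers and from 5.67 to 10.6 in livers labelled DKO. Ifit2 and Ifit3 of the same family had log2 changes of -0.12 and -0.12. For the 2-5A synthetase family, the log2 changes were -0.07 for Oas1a, -0.07 for Oasl1 and -0.10 for Oasl2, each smaller than its SE.

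Oas2 had the lowest log2 change among the effectors, with 8.52, 4.57, 4.08 and 1.83 TPM in the control livers and 1.361, 3.30, 2.66 and 2.21 in the livers labelled DKO. Control replicate 1 was far above the rest and control replicate 4 lay among the livers labelled DKO, and the change of -0.67 ± 0.32 did not pass (SE, adjusted p = 0.298 in limma). Rsad2, the gene of viperin, which makes an antiviral nucleotide, had a change of the opposite sign and stood at 7.15, 3.83, 5.08 and 3.54 TPM in the control livers and 6.81, 6.99, 6.32 and 9.43 in the livers labelled DKO. All 4 livers labelled DKO lay above 3 of the control livers, and control replicate 1 lay within their range. Its log2 change was 0.53 ± 0.27 (SE, adjusted p = 0.333 in limma), above 0 in all 22 alternatives and past the test in none. The remaining effectors Xaf1, Mx1, Mx2, Ifi35, Ifi44, Bst2, Parp9 and Ifi27 had log2 changes from -0.38 to 0.01. Bst2, the gene of tetherin, which holds budding virus at the cell surface, was the most abundant effector per length, at 283 ± 38.8 TPM in control livers and 268 ± 16.7 in livers labelled DKO (SD, n = 4).

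The 7 genes of interferon-induced GTPases, which take part in defence against intracellular parasites, had a median log2 change of -0.33. Igtp (chromosome 11, 58199556 to 58207591, plus strand) stood at 67.2, 46.97, 43.1 and 31.9 TPM in the control livers, 27.5, 31.03, 20.3 and 26.6 in the livers labelled DKO and 29.2, 31.8, 34.4 and 19.2 in the re-expression livers. Control replicate 4, at 31.9 TPM, lay just above the highest liver labelled DKO, so the groups did not overlap. The log2 change was -0.79 ± 0.23 (SE, adjusted p = 0.0764 in limma), and Igtp passed without control replicate 4 (0.0341) and with voom (0.0214). Irgm2 overlaps Igtp on the same strand, so the reads of these genes may be shared. Irgm2 stood at 73.1, 48.03, 49.7 and 37.4 TPM in the control livers and 32.6, 42.6, 29.6 and 36.99 in the livers labelled DKO, with overlapping groups and a change of -0.51.

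Gbp7, a guanylate-binding protein gene, stood at 22.7, 16.98, 14.3 and 14.2 TPM in the control livers and 11.69, 13.4, 10.5 and 12.3 in the livers labelled DKO. Its groups did not overlap, and the log2 change was -0.45 ± 0.15 (SE, adjusted p = 0.112 in limma), with a pass in voom (0.0306). Gbp2 and Gbp3 from the same cluster on chromosome 3 had -0.22 and -0.29, within the spread of the livers. Iigp1, the most abundant GTPase gene per length, had means of 189 ± 33.8 and 149 ± 17.7 TPM (SD, n = 4) and a change of -0.33. Irgm1, on the same chromosome as Igtp, had 29.2 ± 3.64 and 28.9 ± 2.80 TPM and a log2 change of -0.01. GTPase genes have close relatives in the genome, so reads may be assigned to the wrong copy.

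The 6 antigen presentation genes were all lower by means, with a median log2 change of -0.24 and none past the test. Psmb8, an immunoproteasome subunit that shapes peptides for class I, stood at 11.00, 11.2, 15.4 and 10.4 TPM in the control livers, 9.70, 7.08, 7.12 and 7.47 in the livers labelled DKO and 8.08, 8.13, 13.1 and 8.49 in the re-expression livers. The control livers lay above all livers labelled DKO, and re-expression replicate 3 was the 1 liver of its group within the control range. The change was -0.55 ± 0.17 (SE, adjusted p = 0.1 in limma). Psmb9, the gene of the partner subunit, stood at 8.91, 9.39, 12.8 and 10.8 TPM in the control livers, 6.91, 8.23, 7.05 and 7.26 in the livers labelled DKO and 6.19, 5.93, 10.8 and 11.2 in the re-expression livers. Its control livers and livers labelled DKO did not overlap, and re-expression replicates 3 and 4 lay among the control livers while replicates 1 and 2 lay below all other livers. The change was -0.45 ± 0.20 (SE, adjusted p = 0.247 in limma).

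Tap1, which encodes a subunit of the peptide transporter and shares its start region with Psmb9, had 14.9 ± 2.87 TPM in control livers and 13.1 ± 1.81 in livers labelled DKO (SD, n = 4). Tap1 and Psmb9 overlap on opposite strands. B2m, the invariant light chain, was the most abundant member per length, at 3264, 3149, 2934 and 2646 TPM in the control livers and 2708, 2840.3, 2589 and 2697 in the livers labelled DKO. H2-K1 and H2-D1 encode class I heavy chains and belong to a family of near-identical copies, so their reads are uncertain. H2-K1 had 645 ± 77.6 and 539.7 ± 33.6 TPM, and H2-D1 had 431 ± 40.3 and 365 ± 26.2 (SD, n = 4). The log2 changes were -0.14 for B2m, -0.25 for H2-K1 and -0.24 for H2-D1, and their groups overlapped.

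Other genes of the pathway, from lists beside the 41 members, included 5 that were lower by the test. Over all tested genes, 2.34% were lower and 2.99% higher. Of 10 interferon genes, 8 were listed at 0 in all 12 libraries, Ifng had 1 read in each of 2 control libraries and none elsewhere, and Ifnk was the 1 tested gene. Ifnk overlaps Mob3b on the opposite strand, so its value may hold reads of Mob3b. Of 8 receptor and kinase genes tested 0 passed, and Ifngr2, a chain of the interferon gamma receptor, had the smallest p, with a change of -0.20.

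Of 13 other signalling genes 3 were lower by the test, which is 23.1% beside 2.34% of all tested genes, and 0 were higher. The list was chosen with earlier results of these data known, so its share describes the list, and enrichment was not tested. Irf2, a factor that competes with IRF1 for its sites, stood at 40.3, 37.95, 28.2 and 27.7 TPM in the control livers, 21.8, 23.6, 20.7 and 21.9 in the livers labelled DKO and 18.8, 22.99, 22.4 and 21.6 in the re-expression livers. Socs3, an inhibitor of cytokine receptor signalling, stood at 34.97, 14.9, 19.3 and 13.1 TPM in the control livers, 4.73, 7.74, 11.2 and 5.83 in the livers labelled DKO and 5.57, 6.10, 9.61 and 7.67 in the re-expression livers. Tlr3, the endosomal receptor of double-stranded RNA, stood at 6.07, 4.35, 6.66 and 4.39 TPM in the control livers, 2.39, 3.57, 3.57 and 2.87 in the livers labelled DKO and 3.68, 3.03, 3.52 and 3.09 in the re-expression livers. For each of these 3 genes, all 8 livers that carry the DKO label, with or without re-expression, lay below all 4 control livers. In livers labelled DKO against control livers Irf2 fell by 0.57, Socs3 by 1.32 and Tlr3 by 0.63 on the log2 scale, with adjusted p of 0.0228, 0.0284 and 0.0439 in limma. The calls depended on the setting: Irf2 did not pass in 6 of 22 alternatives, Socs3 in 7 of 22 and Tlr3 in 14 of the 21 in which it was tested. For Irf2, 5 of these left out a library, control replicate 1 or 2 or DKO replicate 1, 3 or 4, with adjusted p from 0.0554 to 0.0616 in limma. For Socs3, 5 left out control replicate 1 or 3 or DKO replicate 1, 2 or 4, with adjusted p from 0.0561 to 0.0856. For Tlr3, the call was lost on leaving out any library other than control replicates 2 and 4, with adjusted p from 0.0544 to 0.124.

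Of 33 other interferon-induced genes 1 passed, which is 3.03% and near the share over all genes. It was Ube2l6, the gene of the conjugating enzyme for ISG15. Ube2l6 stood at 56.6, 55.4, 61.8 and 53.7 TPM in the control livers, 39.5, 40.7, 38.3 and 35.9 in the livers labelled DKO and 45.6, 36.8, 47.1 and 41.1 in the re-expression livers, with every control liver above every other liver. It fell by 0.55 ± 0.09 (SE, adjusted p = 0.00358 in limma, and at most 0.0153 over the 22 alternatives). The list's median log2 change was -0.25. Of 16 other class I genes 1 passed, or 6.25%. It was Nlrc5, the gene of the transactivator of MHC class I. Nlrc5 stood at 48.6, 28.6, 31.01 and 29.3 TPM in the control livers, 16.6, 21.03, 20.1 and 17.9 in the livers labelled DKO and 19.9, 22.9, 25.4 and 20.2 in the re-expression livers and fell by 0.80 ± 0.16 (adjusted p = 0.0141 in limma, and at most 0.0482 over the 22 alternatives), and the list's median was -0.28. Of 7 class II genes 0 passed, with a median of -0.05, and Ciita, the gene of the class II transactivator, had the smallest p, with a change of -0.37 ± 0.18 (SE, adjusted p = 0.308 in limma).

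The livers of a group differed among themselves in these genes. Control replicate 1 was the highest control liver for 25 of 41 members, which is 61.0% of them beside 35.6% of all tested genes. Control replicate 4 was the lowest for 30, or 73.2% beside 27.2%. The median over members, relative to each gene's control mean on the log2 scale, was 0.22, -0.07, 0.06 and -0.25 in control replicates 1 to 4. It was -0.25, -0.19, -0.43 and -0.26 in the livers labelled DKO and -0.19, -0.30, -0.04 and -0.37 in the re-expression livers. The median over all tested genes also shifted, to 0.08, 0.07, -0.08 and -0.06 in control replicates 1 to 4. That median lay between 0 and 0.006 in the livers labelled DKO and between -0.006 and 0.06 in the re-expression livers. Without allowance for the shift over all tested genes, -0.06 in that liver, control replicate 4 had a member median within the range of the livers labelled DKO. Re-expression replicate 3 lay between control replicates 2 and 3, and was the highest of its group for 23 members, or 56.1% beside 21.5% of all tested genes.

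**Figure D3:**
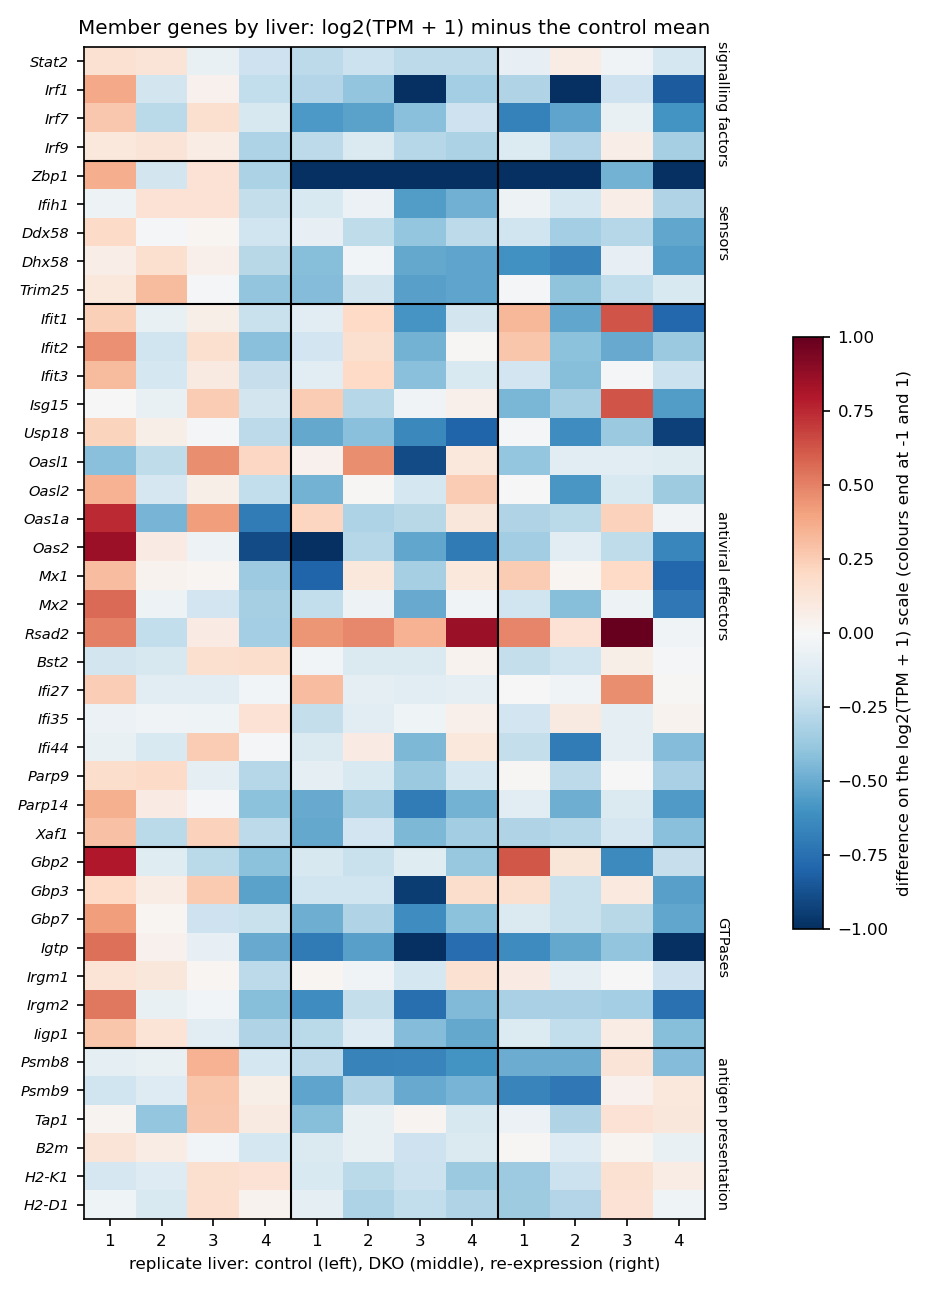
Difference of log2(TPM + 1) from the gene's control mean for the 41 members (rows, by role) in 12 livers (columns, 4 per group). Red is above and blue below the control mean, and colours end at -1 and 1. The Zbp1 row is blue in all livers of the last 2 groups, the control replicate 1 column is mostly red, and the control replicate 4 column is mostly blue.

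Markers of Kupffer cells, the resident macrophages of liver, also had lower means. All 10 Kupffer cell markers were below 0 in log2 change in livers labelled DKO, beside 49.8% of all tested genes. The 10 markers had a median log2 change of -0.41, and 0 passed as lower, beside 2.34% of all genes. Their summed level was 1128, 622, 845 and 506 TPM in control replicates 1 to 4, 565, 554, 535 and 592 in the livers labelled DKO and 1127, 471, 600.1 and 459 in the re-expression livers. Control replicates 1 and 3 had both the highest sums and the highest member medians of their group, while re-expression replicate 1 had a sum near that of control replicate 1 and a member median below that of re-expression replicate 3. In re-expression livers against livers labelled DKO, the Kupffer cell markers had log2 changes of either sign, from -0.49 to 1.40. They were above 0 in 6 of 10, beside 53.3% of all genes. Of 6 monocyte and neutrophil markers 3 were tested, all 3 lower by means and 0 past the test, with sums of 13.02 to 52.3 TPM in control livers and 6.07 to 16.04 in livers labelled DKO. Of these 3 markers, S100a9 was lower at an unadjusted p under 0.05 in limma, beside 8.76% of all genes. The 7 T cell, 6 natural killer cell, 5 B cell and 6 dendritic cell markers each had at least 1 read in some library. Their sums in control livers were 5.09 to 9.58, 2.49 to 9.98, 13.1 to 22.8 and 2.59 to 5.32 TPM, and in livers labelled DKO 4.22 to 7.201, 3.35 to 8.13, 9.27 to 18.2 and 2.38 to 4.30. All 6 markers of sinusoidal endothelium were above 0 in log2 change, with a median of 0.26, and 0 passed as higher, beside 2.99% of all genes. At an unadjusted p under 0.05 in limma, 3 of these 6 were higher, Clec4g, Stab1 and Stab2, beside 9.6% of all genes. Livers labelled DKO lay above control livers without overlap for 2 of the 6, Clec4g and Stab2, beside 6.13% of all genes. None of the markers was at 0 in every library, and the part of these cells in the member differences was not tested.

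**Figure D4:**
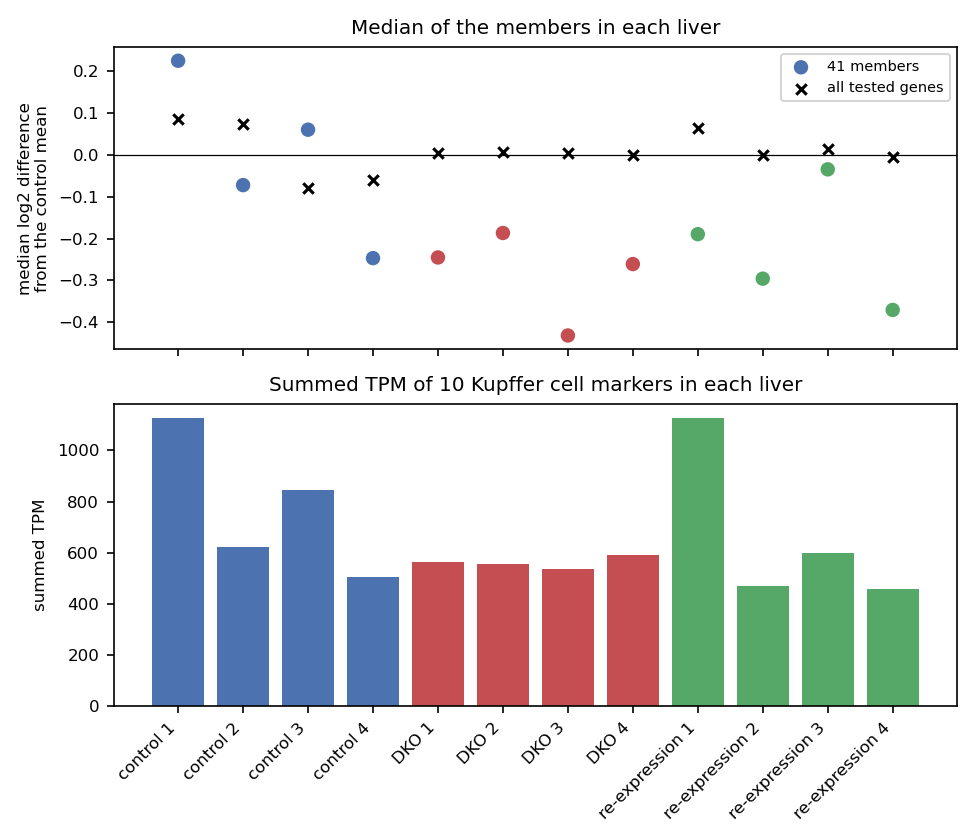
Upper plot, the median over the 41 members (circles) and over all tested genes (crosses) of the log2 difference from the control mean, in each liver. Lower plot, the summed TPM of 10 Kupffer cell markers in each liver, with bars from 0. Control replicate 4 has a Kupffer sum of 506 TPM. Its circle lies among those of the livers labelled DKO, with no allowance for its cross, which lies below theirs.

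Setting re-expression livers against livers labelled DKO asks whether returned REV-ERBalpha changes the set. In limma 0 of 41 members passed, beside 0.0724% of all tested genes, and voom also passed 0, beside 0.123% of genes lower and 0.0724% higher. At an unadjusted p under 0.05, 2 members were higher and 0 lower, beside 2.85% and 3.34% of all genes. These were Zbp1 and Stat2. Zbp1 was 0.49 ± 0.21 higher on the log2 scale (SE, adjusted p = 0.783 in limma), with re-expression replicate 3 at 7.42 TPM and the other 3 between 3.70 and 4.29. Without that liver the difference was 0.29. Stat2 was 0.20 ± 0.09 higher (adjusted p = 0.806 in limma), and its 4 re-expression livers, at 34.7, 38.8, 35.9 and 32.4 TPM, all lay above the livers labelled DKO. It was the 1 member whose groups did not overlap, beside 2.09% of all genes in that direction.

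The log2 changes ran from -0.26 for Ifi44 to 0.49 for Zbp1, with a median of 0.09 beside 0.01 over all tested genes. They were above 0 in 26 of 41 members, beside 53.3% of all genes. By role, the medians were 0.20 for sensors, 0.15 for GTPases, 0.14 for antigen presentation, 0.02 for signalling factors and -0.02 for antiviral effectors. All 6 antigen presentation genes were above 0, from 0.10 to 0.22. This comparison shares the livers labelled DKO with the first. Without re-expression replicate 3 the median over members was 0.01.

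Re-expression livers against control livers gave 1 member past the test, again Zbp1, which is 2.44% of members beside 0.663% of all tested genes in the lower direction. Zbp1 had 4.79 ± 1.78 TPM in re-expression livers and 10.9 ± 2.56 in control livers (SD, n = 4), a log2 change of -1.06 ± 0.21 (SE, adjusted p = 0.0274 in limma). The call was lost in 8 of 22 alternatives (adjusted p from 0.0519 to 0.101), 5 of which left out 1 library. The adjusted p was 0.0744 without control replicate 1, 0.0744 without control replicate 3, and 0.0774, 0.0823 and 0.0818 without re-expression replicates 1, 2 and 4. All 4 re-expression livers lay below all 4 control livers for Zbp1 and for Ddx58, 2 of 41 members beside 3.0% of all genes. Ddx58 stood at 22.7, 19.5, 20.01 and 17.1 TPM in control livers and 17.1, 15.4, 16.02 and 13.4 in re-expression livers, with a change of -0.33 ± 0.11 (adjusted p = 0.176 in limma). For Ddx58 the lowest control liver, at 17.097 TPM, and the highest re-expression liver, at 17.081, were nearly tied.

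The log2 change was below 0 in 39 of 41 members, beside 47.8% of all tested genes, with a median of -0.18 beside 0.01. At an unadjusted p under 0.05, 8 members were lower, beside 5.69% of all genes: Zbp1, Ddx58, Dhx58, Irf1, Irf7, Usp18, Igtp and Irgm2. Igtp had a change of -0.69, Usp18 of -0.48, Dhx58 of -0.47 and Irf7 of -0.47. Rsad2 was again the largest difference above 0, at 0.46, with a re-expression range of 4.61 to 12.6 TPM. This comparison shares its control livers with the first and its re-expression livers with the second.

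The authors' deposited table carries its own tests for 3 numbered comparisons that its header does not name. Its first comparison tracked livers labelled DKO against control livers, with a correlation of 0.936 of log2 fold changes across 17957 genes, which are not independent replicates. In the authors' deposited table, 7 members were lower at an adjusted p under 0.05 in that comparison, beside 4.69% of its genes with an adjusted p, and 0 were higher. These were Zbp1, Igtp, Trim25, Usp18, Parp14, Irgm2 and Gbp7. For the second, which tracked re-expression livers against livers labelled DKO with a correlation of 0.916, the authors' deposited table had 0 members past that threshold, beside 0.241% of genes higher.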

How the data were processed

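RNA was sequenced from 12 frozen mouse livers with a stranded total RNA kit, per the labels' protocols. The submitters' processing notes name STAR 2.7.1a, SAMtools 1.9, featureCounts 2.0.1, DESeq2 1.36.0, bcl2fastq 2.17 and build mm10. No label or header says whether reads were counted by strand. The table deposited by the authors gives TPM per gene and library, per the file headers, and the authors' log2 fold changes and adjusted p-values for 3 comparisons. Columns were matched to groups by name, and the column name with Cre was taken as the DKO group. The column name with YFP and WT was taken as the re-expression group, because only its titles name WT. That match rests on the letters WT.

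Groups were compared on log2(TPM + 1) with limma 3.58.1 (R 4.3.3, trend), 1 fit of 3 groups over 12 libraries with 9 residual degrees of freedom, for 17957 genes with a mean of at least 1 TPM. Tests were two-sided, with Benjamini-Hochberg adjustment over all genes and a threshold of 0.05. Fold changes on this scale understate low genes. The labels call the livers biological replicates, and nothing says more about litters or days. TPM times length less 199 bases was a whole multiple of 1 step in each library (tolerance 0.01 reads), which gave the read numbers. These were used for voom, an alternative. Replicate pairs differed beyond counting noise. Positions are from GENCODE M21 and promoters from RefSeq on GRCm38.p6.

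Members and lists were chosen with earlier results of these data known. Members called, members whose groups do not overlap and the smallest p of each role were given in full. Outside that rule, Trim25, Parp14, Oas2, Rsad2, Isg15, Irgm2 and B2m were also given liver by liver. Of the other pathway lists, called genes or otherwise the smallest p were named. Marker lists were given as counts and sums, and some single markers were also named. The fit was tested on simulated data and missed its first pass mark, set over all genes, mostly through changed genes with few reads. The mark was then limited to genes with at least 10 reads per library, after that miss was seen. Changes in genes with few reads can therefore go undetected. The third deposited comparison was not used.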

Additional observations from a re-analysis of the deposited data

Results flagged for a closer look

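Each of the 41 members was checked in 3 groups of 4 livers, with 1 set per member and group. In 15 sets, 1 liver stood apart from the other 3 by more of the group's range than Dixon's 95% criterion allows. Chance flags about 1 in 20 sets when values are normally distributed and sets are independent. Members share livers, and the share of flagged sets over all tested genes was not computed. Whether members had more flagged sets than other genes was therefore not tested. Re-expression replicate 3 was the high liver in 5 of the 15 sets. It had 7.417 TPM of Zbp1, where the other 3 had at most 4.29, and 9.696 of Dhx58, 38.89 of Isg15, 152.1 of Ifi27 and 13.06 of Psmb8. Re-expression replicate 1 stood high for Ifit2 (5.404 TPM) and low for Oasl1 (7.118), and re-expression replicate 4 stood low for Irgm2 (29.8). In the livers labelled DKO, replicate 2 stood high for Stat2 (31.49) and Dhx58 (10.1), and replicate 1 for Ifi27 (136.3) and Psmb8 (9.702). In the control livers, replicate 4 stood low for Irf9 (16.05) and high for Ifi35 (41.02), and replicate 1 stood high for Gbp2 (12.22).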

How the results depend on the processing

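Values were recomputed under 22 alternatives, except that a filter at a mean of 5 TPM left out Ifit2, Ifi44, Mx1, Oas1a, Oas2, Oasl2, Xaf1, Tlr3 and Ciita. In livers labelled DKO against control livers the number of members past the test, 1, became 2 with a replicate block and 6 with voom, all lower, and ran from 1 to 4 when 1 library was left out. The 4 came without control replicate 4 (Zbp1, Igtp, Parp14 and Trim25), and without re-expression replicate 1 it was 2 (Zbp1 and Usp18). In re-expression livers against control livers the number, 1, became 0 with 8 libraries, with a replicate block and with sample quality weights, and ran from 0 to 1 when 1 library was left out. In re-expression livers against livers labelled DKO it was 0 throughout. The member medians moved by less than their SD between livers of a group, 0.155, and ran from -0.3193 to -0.2097, from 0.0065 to 0.1232 and from -0.2886 to -0.1393 over left-out libraries, in livers labelled DKO against control, re-expression against DKO and re-expression against control. Same-numbered libraries of different groups correlated from -0.0688 to 0.137, and differently numbered ones from -0.126 to 0.0876. Same-numbered control and re-expression libraries were all above 0, at 0.137, 0.0384, 0.0699 and 0.0879 for replicates 1 to 4. Same-numbered pairs that included a library labelled DKO were all below 0. Whether replicate numbers pair the livers was not tested.

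Of 1288 recomputed log2 changes of single genes, 1207 kept direction and side of the threshold, 10 passed, 45 were lost (8 of them Zbp1 in re-expression against control, the others Irf2, Socs3, Tlr3 and Ttr) and 26 changed sign, the last all in livers labelled DKO against control livers and none past the test. Over left-out libraries, the changes ran from -0.2642 to 0.0289 for Ifit2, -0.0893 to 0.09 for Isg15, -0.2467 to 0.2053 for Oasl1, -0.2131 to 0.028 for Oasl2, -0.2992 to 0.1838 for Oas1a, -0.096 to 0.0868 for Ifi27, -0.1709 to 0.0137 for Ifi44, -0.3562 to 0.0453 for Gbp2 and -0.0983 to 0.0443 for Irgm1. Quantile normalization gave 0.0001 for Isg15 and -0.0244 for Ifi27, voom gave 0.0138 for Isg15, and sample quality weights gave 0.0002 for Oas1a and 0.0023 for Irgm1. The cause of these changes was not tested. At 5621667 to 6906221 reads counted to genes per library, members of a few TPM such as Ifi44 and Mx1 rest on few reads.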
